A study of Mus musculus with 4 samples.

Results

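Some of the peaks called in Flag ChIP of cells with Flag-tagged Nynrin lie far inside genes, away from the annotated ends where most shared peaks fall. The 1181 peaks described here are those deep intragenic peaks. Each is a peak of the first Flag ChIP library on chromosomes 1 to 19 that overlaps a peak of the second by at least 1 bp. Its summit, the position of highest signal, lies inside a protein-coding gene, more than 10000 bp from the closest protein-coding gene end and more than 1000 bp from any end of another annotated gene. They make up 10.5% (exact Clopper-Pearson 95% interval 9.92 to 11.1%) of the 11266 shared peaks on these chromosomes, and they lie in 823 genes. The members were thus chosen by the peak calls of both libraries and their overlap, so their enrichment, width and reproducibility are given as descriptions, with no test.

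Chromatin immunoprecipitation followed by sequencing (ChIP-seq) was done with a Flag antibody on lineage-negative cells, which are marrow cells depleted of cells with mature-lineage surface markers and which hold the stem and progenitor cells. The cells came from C57BL/6 mice, 8 weeks old, of the genotype 3xFlag-Nynrin-Tg, which carries Flag-tagged Nynrin as a transgene, and all 4 libraries, 2 of Flag ChIP and 2 of input, share this genotype. The promoter that drives the transgene is not given in the sources used here, and neither is whether the replicates came from separate animals, so their spread may be technical. The input libraries were not analysed here and libraries of untagged cells or of another antibody were not used here. A peak therefore means a position that the authors' caller reported, with no further subtraction. The full lists hold 12702 and 25787 peaks with no read counts, so the depth behind a peak is unknown. Peak lists hold no expression, and the identity of the sorted cells could not be checked against marker genes.

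Nynrin is named for its NYN ribonuclease-like domain and its retroviral integrase-like domain. The inside of a long gene can carry regulatory DNA of several kinds. Among them are internal promoters, which start shorter transcripts and in mammals often lie in CpG-rich DNA, and intronic enhancers, which are bound by transcription factors in the cell types where they act. In blood progenitors many such enhancers lie within the genes for the transcription factors themselves, and an intron of Runx1 is a well-known case.

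Most of the 12 highest-ranked deep intragenic peaks lay at internal starts. A start here is a transcript's first base as listed in a RefSeq promoter table for GRCm38.p6, the assembly behind mm10. Of the 12 members with the highest score, 9 had a summit within 1000 bp of a listed start that is itself far from the gene's ends. Among the 50 highest it was 20, and another 11 lay in genes with no listed start. The score is the lower of a peak's percentiles by fold enrichment in the 2 full lists. To show what such a start looks like, the 200 bases just before 5 of them are printed 5′ to 3′ on the strand of the gene, from RefSeq (GRCm38.p6). Capitals mark a GC box, searched as CCGCCC on both strands, the short motif of Sp and Klf family factors. Iqgap1, Adk and Cic stand for starts with several GC boxes, Smim14 for the highest-ranked member, and Runx1 for a start in a blood transcription factor gene. The windows are chr7:80803332-80803531 on the minus strand for Iqgap1, chr14:21075952-21076151 on the plus strand for Adk, chr7:25281979-25282178 on the plus strand for Cic, chr5:65492989-65493188 on the minus strand for Smim14 and chr16:92697330-92697529 on the minus strand for Runx1.
Iqgap1: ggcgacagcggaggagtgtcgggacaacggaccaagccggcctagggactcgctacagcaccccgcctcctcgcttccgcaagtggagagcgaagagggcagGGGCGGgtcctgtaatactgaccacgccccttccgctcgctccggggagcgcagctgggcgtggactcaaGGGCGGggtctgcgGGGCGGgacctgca
Adk: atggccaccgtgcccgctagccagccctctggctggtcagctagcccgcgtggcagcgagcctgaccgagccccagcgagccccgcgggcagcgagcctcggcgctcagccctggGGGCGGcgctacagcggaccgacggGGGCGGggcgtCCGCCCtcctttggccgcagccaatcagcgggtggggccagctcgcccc
Cic: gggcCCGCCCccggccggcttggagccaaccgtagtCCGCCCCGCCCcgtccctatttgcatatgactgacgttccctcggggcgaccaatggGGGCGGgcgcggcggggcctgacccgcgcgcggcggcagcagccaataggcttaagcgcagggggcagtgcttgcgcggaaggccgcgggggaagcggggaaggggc
Smim14: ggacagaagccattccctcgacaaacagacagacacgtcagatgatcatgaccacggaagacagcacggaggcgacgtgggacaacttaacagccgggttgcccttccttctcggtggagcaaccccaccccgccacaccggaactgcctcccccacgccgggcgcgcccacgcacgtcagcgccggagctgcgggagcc
Runx1: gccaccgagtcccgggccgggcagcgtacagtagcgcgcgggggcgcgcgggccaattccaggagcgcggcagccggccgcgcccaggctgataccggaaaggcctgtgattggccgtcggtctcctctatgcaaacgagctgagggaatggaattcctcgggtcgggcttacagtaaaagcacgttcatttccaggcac

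Iqgap1, Adk and Cic have 3, 3 and 4 GC boxes in these windows, and in Cic 1 pair of them overlaps. Smim14 and Runx1 have none, although their windows hold 19 and 22 CpG dinucleotides. The Iqgap1 window holds 20, that of Adk 23 and that of Cic 25. A match is only a stretch of letters and does not show that a factor binds there.

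Values for the printed starts follow, as fold enrichment over the authors' background. Smim14, which encodes a small membrane protein, had a peak at chr5:65492390-65493900 where replicate 1 gave 8.78 and replicate 2 gave 11.96. Its summit lay 39 bp from the internal start and 44200 bp from the closest end of a coding gene. Iqgap1 encodes a scaffold that links Cdc42 and Rac1 to actin, and its peak at chr7:80802882-80803507 had fold enrichments of 6.52 and 12.5, with the summit 293 bp from the start. That value is the highest of any member in replicate 2. The peak in Adk, the adenosine kinase gene, lay at chr14:21075618-21076607, 48 bp from the start, with fold enrichments of 6.94 and 9.30. Cic, which encodes the repressor Capicua, had a peak at chr7:25281953-25282866, 101 bp from the start, with 6.58 and 9.06. These 4 peaks ranked above 91% of their full list in both replicates.

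The other starts among the 12 highest peaks belonged to genes of varied function. Cdkl4 encodes a cyclin-dependent-kinase-like protein, and its peak 83 bp from a start had fold enrichments of 7.36 and 10.6. Kansl1 encodes a subunit of the NSL histone acetyltransferase complex, and its peak had 7.39 and 10.1. Rps6ka2, a ribosomal S6 kinase gene, had 6.78 and 9.37 at 114 bp from a start. Mxi1 encodes a Max partner that opposes Myc, and its peak 47 bp from a start had 6.94 and 9.30. Aff1, which encodes a scaffold of the super elongation complex, had 6.12 and 9.30 at 592 bp. Of the 3 remaining members, the one in Cyrib, a Rac1 interactor, had 7.74 and 10.4, and its host has no listed start. The peaks in the sphingomyelin synthase gene Sgms2 (7.74 and 10.4) and in Bcas3 (6.12 and 10.1) lay 14347 and 6144 bp from the closest listed start.

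Over all members, 961 lay in 661 genes with a listed start, and 160 of these (16.6%) had a summit within 1000 bp of a listed start far from the gene's ends. Over all genes with a listed start, hosts or not, such positions make up 0.495% of the bases that meet the distance rule. Stated per length of those bases, there were 60.5 members per Mb near internal starts and 1.51 per Mb elsewhere. In 158 of the 160 the start belonged to the host gene itself, and the median distance from summit to start was 106 bp. The replicate 2 summit lay within 1000 bp of the same start in 155. With these members cut into 4 groups by score, the share was 61 of 241 (25.3%) in the highest group and 41 of 240 (17.1%), 27 of 240 (11.25%) and 31 of 240 (12.9%) in the next 3. A wider window of 5000 bp took in 24.1% of the members and a window of 250 bp 12.4%. Replicate 2 peaks taken with no condition on replicate 1 gave 8.73%, and replicate 1 peaks with no condition on replicate 2 gave 13.1%. Distance from gene ends therefore does not place these peaks away from every start.

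Peaks at internal starts were wider and ranked higher in replicate 2 than peaks away from them. The median fold enrichments of these 160 were 4.16 and 6.35, at percentiles of 53.7 and 73.9 in the full lists. The 801 members away from a listed start had medians of 4.01 and 4.78, at percentiles of 49.2 and 52.8. Median widths were 575 bp at starts and 441 bp away from them in replicate 1. Of the members at starts, 11 of 160 (6.88%) were in the top 10% of both lists by fold enrichment, against 2 of 801 (0.25%) away from them. The 220 members whose host has no listed start lay near the second group, with medians of 4.02 and 5.05, and 1 of them was in the top 10% of both lists. Some of those 220 can lie at starts that the table does not list.

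**Figure D1:**
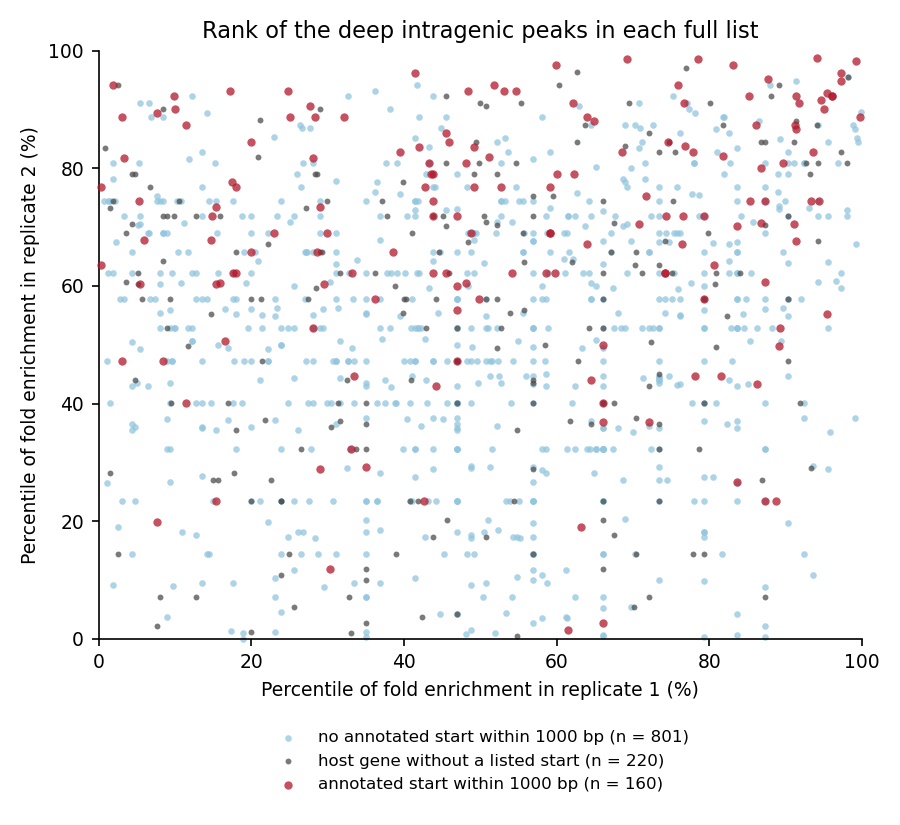
Each point is a deep intragenic peak, placed by its percentile of fold enrichment (%) among all peaks of replicate 1 (horizontal axis) and of its strongest partner among all peaks of replicate 2 (vertical axis). Peaks at an annotated start (red, n = 160) fill most of the upper right corner, while those away from one (blue, n = 801) and those in genes with no listed start (grey, n = 220) spread over the whole range.

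The starts with a member differed from the starts without one in base composition. In all, 1486 listed starts met the distance rule, and 178 of them (12%) had a member within 1000 bp. These 178 belong to 151 genes, and close starts of 1 gene can share a member. The interval below counts starts as separate, so it may be too narrow. In the 250 bases before the start, those with a member had a median of 6.8 CpG per 100 bases, the 1308 without had 1.6, and all 31396 starts in the table had 2.4. The median GC content was 62% with a member and 50% without. The share of starts with a member was higher in each successive class of CpG content, from 13 of 428 (3.04%) under 1 CpG per 100 bases to 102 of 229 (44.5%, exact 95% interval 38.0 to 51.2%) at 6 or more.

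**Figure D2:**
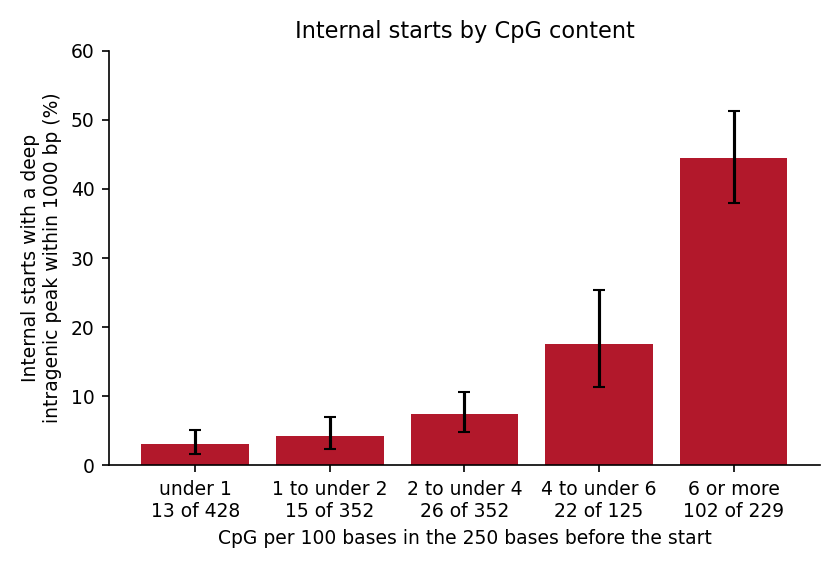
Bars show the share (%) of internal starts with a deep intragenic peak within 1000 bp, by CpG per 100 bases in the 250 bases before the start, with exact 95% intervals and the counts under each bar. The share goes from 3.04% in the lowest class to 44.5% in the highest.

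Of the motifs searched, the GC box differed most between starts with and without a member. It stood before 59.6% of starts with a member, 22.5% of starts without and 33.0% of all listed starts. Within the class of 6 or more CpG per 100 bases the box stood before 81 of 102 starts with a member (79.4%) and 111 of 127 without (87.4%). Between 4 and 6 it stood before 16 of 22 (72.7%) and 46 of 103 (44.7%), so at a like CpG content the order depended on the class. The ETS motif GGAAGTG stood before 11.2% of starts with a member and 7.03% without. The RUNX motif TGTGGT stood before 11.2% and 16.5%, the GATA motif AGATAAG before 1.69% and 2.45%, and the AP-1 motif TGACTCA before 2.81% and 4.66%. The CEBP motif TTGCGCAA stood before none of the 1486. The shares over all listed starts were 8.67%, 14.0%, 2.72%, 4.50% and 0.159%. Both strands were searched, and these windows are promoters, not the peaks themselves.

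As a group, the deep intragenic peaks were weaker and narrower than shared peaks at gene ends. In replicate 1 their fold enrichment had a median of 4.03 (range 2.34 to 10.8), and in replicate 2 a median of 5.05 (range 2.40 to 12.5). The 6225 shared peaks with a summit within 1000 bp of a coding gene end had medians of 4.20 and 7.71. In ranks, the members' medians were the percentiles 49.8 and 57.9 of the full lists, and those of the gene-end peaks 54.8 and 84.5. The gap was thus small in replicate 1 and wide in replicate 2. Median width in replicate 1 was 454 bp for members and 647 bp for gene-end peaks. In the top 10% of both lists stood 14 members (1.19%) and 543 gene-end peaks (8.72%).

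A peak at such a position in 1 library was not always found in the other. Of 1563 peaks of replicate 1 that met the position rule, 75.6% overlapped a peak of replicate 2, against 89.2% of all 12627 replicate 1 peaks on chromosomes 1 to 19. In the longer list of replicate 2, 4390 peaks met the position rule and 26.4% of them overlapped a peak of replicate 1, beside 42% of all 25539 on these chromosomes. The 2 summits of a member, whose peaks overlap by the rule, lay a median of 125 bp apart, and 69.0% lay within 200 bp, beside 109 bp and 73.1% for gene-end peaks. Of the replicate 1 peaks without a partner in genes with a listed start, 8 of 320 (2.5%) lay at an internal start, beside the 160 of 961 with a partner.

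Several strong members had a summit over 1000 bp from any listed start. Some of them were in genes for proteins of mature blood cells. The highest fold enrichment of any member in replicate 1 was 10.8, in Selp, which encodes P-selectin, the adhesion receptor of platelets and endothelium. That peak (chr1:164134592-164136585) had 8.74 in replicate 2 and lay 16120 bp from a listed start. The widest member, at 3790 bp, was in Srgn (chr10:62505915-62509704), the gene of the granule proteoglycan serglycin. It had 8.38 and 8.08, and its summit lay 1287 bp from a start of Srgn, just beyond the window used. The peak itself covered that start in both libraries. The next widest, at 3186 bp, was in Nr3c1, the glucocorticoid receptor gene, with 5.72 and 9.30, but the table lists no start on its chromosome. The third, at 2243 bp, was in Cd200r3, which encodes a CD200 receptor family member of mast cells and basophils, with 5.68 and 5.85.

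Members were spread unevenly over genes. Of the 9419 genes on chromosomes 1 to 19 with at least 1 bp that meets the rule, 823 (8.74%) held a member. There were 585 hosts with 1 member, 163 with 2, 48 with 3 and 27 with 4 or more, and the 238 hosts with at least 2 held 50.5% of all members. A few members lay in more than 1 annotated gene, 4 inside 2 coding genes and 56 inside a gene of another class. Per chromosome, the density ran from 1.12 members per Mb of eligible bases on chromosome 9 to 2.85 on chromosome 19. Neighbouring members of a host had a median gap of 12791 bp, and 29.9% of the 358 gaps were within 5000 bp. Some close neighbours may be parts of 1 wider site, which peak lists alone cannot show. Of the 1181, 67 shared their strongest replicate 2 peak with another member. In Lcp1, the gene of the leukocyte actin-bundling protein L-plastin, 4 members within 3.96 kb had only 2 partners.

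Akap13, which encodes a protein kinase A anchor, held the most members, with 8. They formed 2 groups, from 131120 to 140886 bp and from 231085 to 249010 bp from the 5′ bound of the gene, and none lay at a listed start. Fold enrichments lay between 3.98 and 6.25 in the first library and between 2.62 and 5.05 in the second. Baz2b, the gene of a bromodomain protein of chromatin, held 7, with 4.54 to 5.56 and 4.03 to 8.18. A pair of them 719 bp apart shared the same replicate 2 peak, so the 7 had 6 partners. The replicate 1 summit of 1 of the 7 lay 828 bp from an internal start, but its replicate 2 summit lay 1988 bp from it. Trps1, which encodes a GATA-type repressor, held 6, with 3.41 to 5.11 and 3.49 to 8.80.

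Hosts with 5 members included signalling and RNA genes, and of these Slc7a11, Lrrfip1, Pde4d and Sgms1 are not drawn. The nucleotidase gene Nt5c2 had a peak 109 bp from an internal start with 4.20 in replicate 1 and 9.57 in replicate 2, and 4 others away from starts. In Tnrc6b, which encodes an Argonaute partner in microRNA silencing, the peak 33 bp from an internal start had 6.54 and 6.38. Pde4b, the gene of a cAMP phosphodiesterase, had its 5 members in the last part of the gene, between 406163 and 501525 bp from the 5′ bound, and 2 of them lay at internal starts. For 1 of these 2 the replicate 2 summit lay 1115 bp upstream of the start, outside the window. Rapgef4, which encodes a cAMP-activated Rap exchange factor, had 5 away from starts, the strongest with 7.39 and 5.31.

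Runx1, a transcription factor needed for the first blood stem cells, also held 5. The member at its internal start (chr16:92697332-92697693) had 3.23 in replicate 1, the lowest of the 5, and 4.74 in replicate 2, second to the strongest, and its summit lay 36 bp from the start whose upstream sequence is printed above. The strongest lay 110490 bp from the 5′ bound (chr16:92714891-92716050) with 4.69 and 7.04. A neighbouring pair lay 24268 bp (chr16:92801524-92802101, 3.52 and 4.52) and 25186 bp (chr16:92800770-92801015, 3.90 and 3.72) from the 5′ bound, between the 2 listed starts. The fifth lay at 205120 bp with 3.68 and 4.52. In the full list of replicate 1 the strongest stood at the percentile 69.8 and the others between 16.6 and 43.1. In replicate 2 the strongest stood at 80.0 and the others between 23.5 and 50.6.

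**Figure D3:**
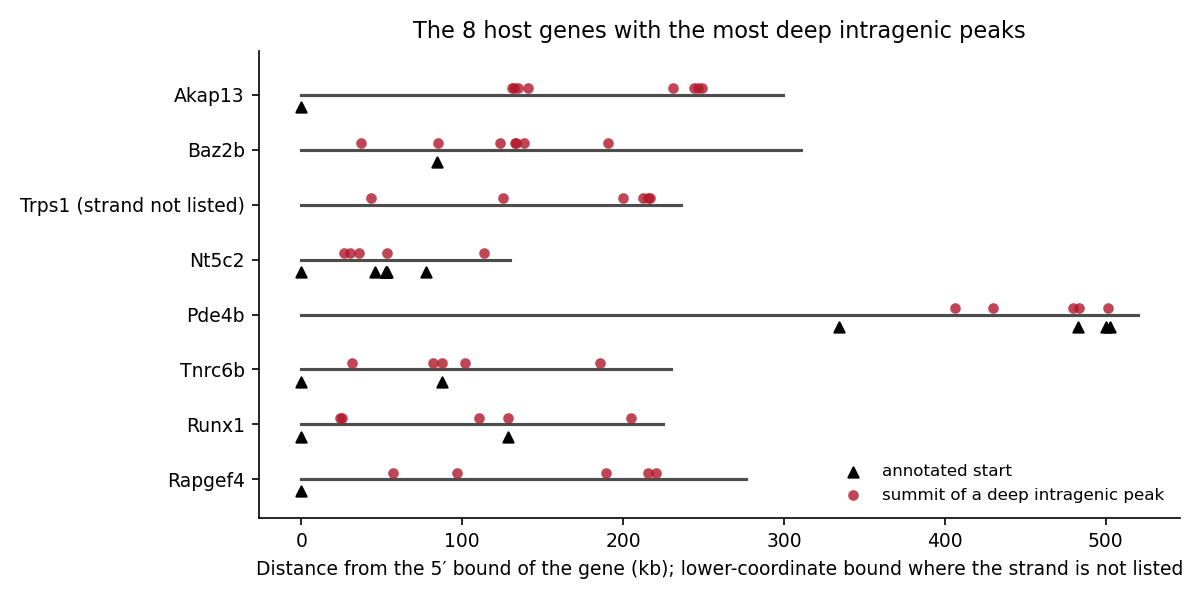
Lines show 8 host genes with 5 to 8 members, those with the most first, to scale, from the 5′ bound (lower-coordinate bound for Trps1, whose strand is not listed), with summits as red points and listed starts as black triangles. Members of Akap13 fall into 2 groups away from any listed start, and in Runx1 and Tnrc6b 1 of the 5 members sits on an internal start.

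Members became sparser with distance from the 5′ bound of the gene. There were 3.47 per Mb of eligible bases at 10 to 20 kb, 2.64 at 30 to 50 kb, 1.31 at 100 to 200 kb and 0.515 beyond 200 kb. Members away from listed starts followed the same course, from 2.57 to 0.470. Measured from the 3′ bound the density was 2.43 at 10 to 20 kb and still 2.54 at 50 to 100 kb, and it was lower only beyond that. Along the gene, the last 20% of its length held 9.99% of members and 14.4% of eligible bases, and the stretch from 40 to 60% held 27.9% and 25%. Bases far from a bound occur only in long genes, and density also fell with gene length. Over all genes that could hold a member it was 4.10 per Mb in genes up to 30 kb. It was 2.59 at lengths of 100 to 200 kb and 0.817 above 200 kb. Distance and gene length were not separated here. Position was measured only in hosts whose strand is listed, and the intron or exon of a summit was not analysed here.

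**Figure D4:**
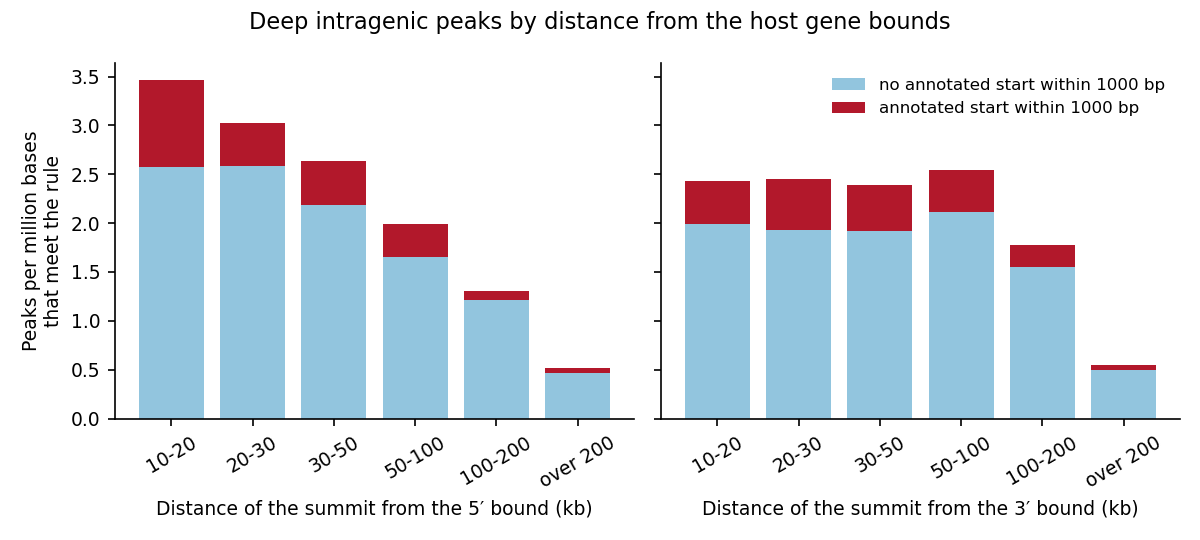
Bars show members per Mb of bases that meet the rule, by distance of the summit from the 5′ bound (left) and the 3′ bound (right) of the host gene in kb, split into members with (red) and without (blue) an annotated start within 1000 bp. From the 5′ bound the total runs from 3.47 to 0.515, and from the 3′ bound it stays between 2.39 and 2.54 up to 100 kb.

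The members farthest from any coding gene end lay in the longest genes. In Pde4d, a cAMP phosphodiesterase gene, 3 peaks lay 644823, 607472 and 575378 bp from the closest end. Their fold enrichments were between 3.41 and 4.27 in replicate 1 and between 3.08 and 4.78 in replicate 2. The peak at 607472 bp stood only at the percentile 4.59 of replicate 2. Ctnnd2, which encodes a delta-catenin of neurons, had a peak 418439 bp away (4.51 and 5.05), and the glypican gene Gpc6 had 1 at 353936 bp (4.54 and 5.31). At the other edge of the rule, the members closest to a gene end were in Il17ra, Rhbdf2 and Stk4, at 10042, 10065 and 10068 bp. The peaks just outside it were in Hk2, Glrp1 and Alox5ap, at 9978, 9977 and 9970 bp. Fold enrichments were 4.65, 2.98 and 3.89 inside and 3.52, 3.98 and 4.97 outside in replicate 1, and the 2 sets overlap.

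The share of genes with a peak at a gene end as well was higher among hosts than among other genes, and the gap was widest in long genes. A summit within 1000 bp of an end was called in both replicates for 37.6% of the 9419 genes. The share was 44.0% of the 823 hosts (exact 95% interval 40.6 to 47.5%) and 37.0% of the other genes (36.0 to 38.0%). Among genes longer than 200 kb it was 67 of 168 hosts (39.9%) and 113 of 777 others (14.5%). Between 30 and 50 kb it was 42.6% and 42.3%. The 151 hosts with a member at an internal start had a gene-end peak in 33.1% of cases, and the 510 with members only away from listed starts in 48.8%. Both kinds of peak come from the same libraries, so these shares are not independent evidence.

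Every list but the neuronal one had a share of hosts above that of all genes, lists of blood cells and of general function alike. Hosts made up 1.69% of genes up to 30000 bp long, 18.5% at 100000 to 200000 bp and 17.8% above 200000 bp. The lists were not matched for gene length, and whether length accounts for their shares or densities was not tested. The lists were drawn up with earlier results of these data known, so they describe the hosts and do not test them. Of 26 genes for stem and progenitor transcription factors that could hold a member, 10 did (38.5%, exact 95% interval 20.2 to 59.4%), or 5.54 members per Mb of eligible bases, beside 8.74% and 1.71 over all genes. Besides Runx1 they were Etv6, Runx2, Fli1, Ikzf1, Elf1, Lmo2, Bcl11a, Erg and Nfia. Ikzf1, the gene of the lymphoid regulator Ikaros, had 2 peaks with fold enrichments of 5.61 and 5.40 in replicate 1 and 4.78 each in replicate 2. Fli1 and Erg, ETS factors that act with Runx1 in stem cells, had 5.33 and 4.80 at the stronger Fli1 peak and 4.29 and 3.88 at the Erg peak. Elf1 had a peak 69 bp from an internal start with 2.65 in replicate 1 and 8.50 in replicate 2, a wide gap in rank.

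Among adhesion, migration and cytoskeleton genes the share was highest, 21 of 46 (45.7%, 30.9 to 61.0%). The list also names the transcription factor gene Fli1, counted above, and without it the share was 20 of 45 (44.4%). The hosts included Cd44, the hyaluronan receptor gene (5.40 and 4.78 at the stronger of 2 peaks), Itgb2, which encodes the leukocyte integrin beta chain (4.23 and 9.03), and several genes for Rac and Cdc42 exchange factors or formins. Arhgap25, a Rac GTPase-activating protein gene, had 5.70 and 9.83, Dock8 had 5.40 and 7.51, and Fmnl3 had 5.27 and 8.50. In the cytokine and growth factor list 15 of 51 genes (29.4%, 17.5 to 43.8%) were hosts. There Stat5b, which relays cytokine signals to the genome, had 3 peaks with 4.94, 4.15 and 3.18 in replicate 1 and 5.85, 6.38 and 5.21 in replicate 2, and the last lay 80 bp from an internal start. Gab2, a docking protein gene, had 5.68 and 7.71 at the stronger of 2.

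The remaining blood lists were small. Among myeloid genes, 4 of 18 were hosts (22.2%, 6.41 to 47.6%). Mef2c, a transcription factor gene, had 5.68 and 7.17 at the strongest of 3 peaks, the kinase gene Syk had 4.86 and 5.85 at the strongest of 3, and the integrin gene Itgam had 5.11 and 3.55. The share was 7 of 29 (24.1%) among lymphoid genes and 3 of 15 (20%) among erythroid and megakaryocyte genes, the latter being Selp, Plek and Fyb. For these erythroid and myeloid lists the interval takes in the 8.74% of all genes. Per length the order differed. The myeloid list had 17.4 members per Mb of eligible bases, the most of any list, from 9 members in 0.517 Mb. The erythroid and megakaryocyte list had 3.68 and the lymphoid list 2.17, beside 1.71 over all genes. That last value mixes gene lengths, with 4.10 in genes up to 30000 bp, 2.59 at 100000 to 200000 bp and 0.817 above 200000 bp. The lymphoid value is thus above or below that of other genes depending on the length class. These 3 lists were not compared at like gene length.

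Lists of general cell function held hosts as well. The share was 12 of 49 (24.5%, 13.3 to 38.9%) among RNA processing and translation genes, 12 of 59 (20.3%, 11.0 to 32.8%) among chromatin regulators, 8 of 40 (20%, 9.05 to 35.6%) among cell cycle and repair genes and 8 of 48 (16.7%, 7.48 to 30.2%) among autophagy, lysosome and ubiquitin genes. The last interval takes in the 8.74% of all genes, and this list's density was 1.83 members per Mb of eligible bases beside 1.71. Among chromatin genes Hdac4, a class II histone deacetylase gene, had 5.09 and 12.2 at 178 bp from an internal start, and the cohesin gene Stag1 had 6.13 and 9.03 at 174 bp from an internal start. Fancc, of the Fanconi anaemia core complex, had 5.27 and 7.42 at 127 bp from an internal start. Of 58 neuronal genes, which offered 59.8 Mb of eligible bases, only Galntl6 held a member (1.72%, 0.0436 to 9.24%), with 3.31 and 5.24. That interval over genes also takes in the share of all genes, but these genes are long. Per length the list had 0.0167 members per Mb, beside 1.71 over all genes and 0.817 in genes longer than 200 kb.

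Mitochondrial genes, the subject of the series title, were hosts at a share near that of all genes, 6 of 51 (11.8%, 4.44 to 23.9%). Mcu, the pore subunit of the mitochondrial calcium uniporter, had the strongest of them (chr10:59564514-59565290), with 6.09 and 7.17, and a weaker second peak with 2.76 and 4.37. The aspartate and glutamate carrier gene Slc25a12 had 5.68 and 5.02, and the kinase gene Gsk3b had 3.84 and 6.16. Ppif, which encodes the pore regulator cyclophilin D, is 6895 bp long and cannot hold a member. Nynrin itself is 20622 bp long, has 620 eligible bases and held none.

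**Figure D5:**
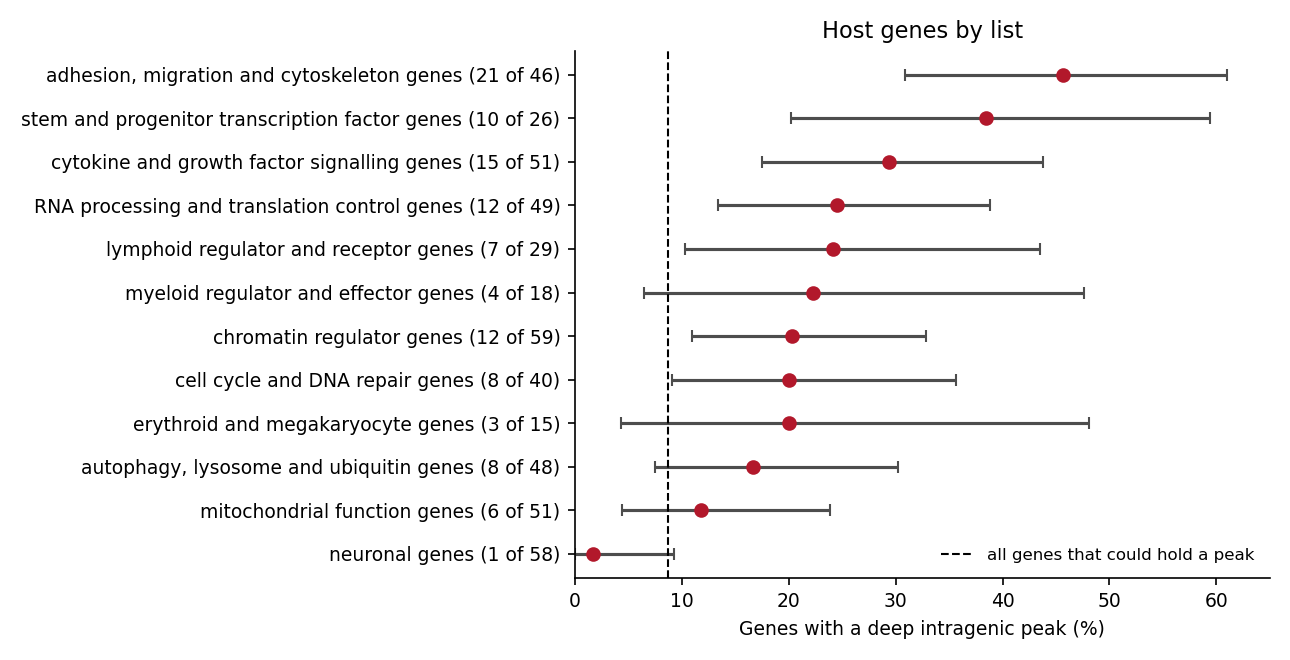
Points show the share (%) of genes in each list that hold a deep intragenic peak, of those that could, with exact 95% intervals over genes, and the dashed line marks the 8.74% of all genes. Adhesion genes (45.7%) and stem and progenitor transcription factor genes (38.5%) lie highest and neuronal genes (1.72%) lowest.

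The list shares depended on the library and the cutoff, while the background moved with them. In replicate 2 alone, 21.9% of all genes held a deep intragenic peak, and the shares were 73.1% for stem and progenitor transcription factor genes, 71.7% for adhesion genes and 8.62% for neuronal genes. With a −log10 q of at least 5 in both replicates, 3.61% of all genes were hosts, and the shares were 19.2%, 30.4% and 0%. At that cutoff mitochondrial genes stood at 3.92%, and cell cycle and DNA repair genes at 2.5%, under the share of all genes where they had been over it.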

How the data were processed

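Peak lists of 2 Flag ChIP-seq libraries were used, with positions in mm10. Fixation was for 10 min in 1% formaldehyde, and 10 ng of DNA went into each library, amplified for 16 cycles and selected at 100 to 500 bp, per the labels' protocols. Tools named without versions in the submitters' processing notes, and credited to them, are cutadapt, Trimmomatic, FastQC, Bowtie2, MACS2 and ChIPseeker. For the calling threshold and the use of the inputs, nothing is given in the sources used here. Per peak, the authors deposited a fold enrichment, a linear ratio at the summit, and a −log10 q value. In 100% of peaks the score the authors deposited equals 10 times that value, and it was not used. The deposited values are the authors' own, and were ranked only within a list. The lists hold no counts, so depth is unknown.

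Gene bounds came from the RefSeq gene table of GRCm38.p6, and starts from a RefSeq promoter table, which lists 79.6% of the coding genes on chromosomes 1 to 19 and none on chromosome 18. The design asked for motifs at the summits. With no genome given, the 250 bases before each listed start were searched instead. The members, the gene lists (22 of 632 names were not matched) and the named genes were chosen with earlier results of these data known. Named genes were the 12 members with the highest score, the 8 hosts with the most members, the 5 farthest from a gene end, the 3 widest, the 3 on each side of the 10000 bp distance, up to 3 hosts of each list, Nynrin and Ppif. A gene selected in this way can be left unreported here. Lcp1, the starts printed, and further hosts of a list were named after their values were seen. Intervals are exact Clopper-Pearson 95% intervals and cover the sampling of peaks, genes or starts only, not animals or reads. Alternatives changed the overlap, the cutoff, the distances, the replicates and the start window. The overlap and distance steps were tested on simulated data. Calculations used Python 3.11.15, numpy 2.4.6, pandas 2.3.3 and scipy 1.17.1.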

Additional observations from a re-analysis of the deposited data

How the results depend on the processing

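The number of members, 1181, was 628 when 50% of both peaks had to overlap, 402 with a −log10 q of at least 5 in both replicates, 150 with a fold enrichment of at least 5 and 778 at 20000 bp from a gene end. Without a condition on the other library it ranged from 1563 to 4390. The share of shared peaks was 6.86% at the q cutoff, 5.97% at the fold cutoff, 14.0% at 5000 bp, 6.91% at 20000 bp and 11.2% with no condition on other genes, and 12.4 to 17.2% of a single list. The share at an internal start, a result chosen with its alternatives after seeing the data, was 26.2% at the q cutoff, 28.8% at the fold cutoff, 19.6% at 5000 bp and 14.2% at 20000 bp, and 8.73 to 13.1% in single lists. The 50% overlap gave a median position of 42.0% of the gene, a summit distance of 107.5 bp, a fold enrichment of 4.26 and a width of 551.5 bp, and the q cutoff gave 40.7%, 114.5 bp, 4.93 and 653.5 bp. With a gene-end window of 3000 bp, 54.2% of hosts had a gene-end peak. The other 23 values for these results stayed within the spread or within 1.5 times, and the cause of the changes was not tested. No paired analysis was possible because no groups were compared and the input libraries that share the replicate numbers were not analysed here.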
